A study of Homo sapiens with 4 samples.

Results

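The genes described here encode the proteins of the cytosolic ribosome and the near copies of some of them that stand elsewhere in the genome. They were taken by symbol: protein-coding genes named RPL or RPS with a number and an A, L or X suffix where present, together with RPLP0, RPLP1, RPLP2, RPSA and FAU. RPS6K kinases, pseudogenes and chromosome Y were left out. The rule found 86 of 60614 gene IDs: 78 core members, 32 of the small and 46 of the large subunit, and 8 paralogs. Of these, 84 had enough reads to be tested. RPL10L had 0 counts in all 4 libraries, and RPL3L had 0 and 2 counts with F133V, against 0 and 1 with wild-type.

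RNA-seq was done on DU145, an established human prostate cancer cell line, with the genotype SPOP-F133V (2 libraries, replicates 1 and 2) or wild-type (2 libraries, replicates 1 and 2). SPOP is the substrate-binding subunit of a CUL3 ubiquitin ligase. Both genotypes were grown in the same medium, and no drug treatment is given in the labels. Clone or pool, and added or edited SPOP, are not told by the labels for the mutant cells. Nor are separate cultures named for the replicates, and p-values then measure the spread of these samples alone, which may be technical. Gene counts summed to 36149516 and 35173245 for F133V replicates 1 and 2, against 39642063 and 36102260 for wild-type replicates 1 and 2. SPOP itself was at 1170.4 and 1149.8 CPM (counts scaled to library size) in F133V cells, against 843 and 905 CPM in wild-type cells. The epithelial genes KRT8, KRT18, KRT19, CDH1 and EPCAM were present in all 4 libraries. The prostate gene KLK3 was at 0, and the blood cell gene PTPRC and the fibroblast gene DCN had at most 1 count in any library.

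A ribosome holds 1 copy of nearly every ribosomal protein, assembled on ribosomal RNA into a small subunit that reads the mRNA and a large subunit that joins amino acids. In mammals their mRNAs begin with a run of C and T letters at the 5′ end (the TOP motif, for terminal oligopyrimidine), through which mTOR signalling and LARP1 control their translation together. Most of the genes also have many processed pseudogenes, copies of the mRNA inserted into the genome, from which short reads can be hard to tell.

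The start-site sequences of some core members and paralogs are shown first, since they hold the TOP run where there is one. Each line gives 40 bases before and 20 bases after the start, from RefSeq on GRCh38.p14, on the gene's own strand, with the pyrimidine run in capitals.
RPL13A, chr19:49487568-49487627, plus strand: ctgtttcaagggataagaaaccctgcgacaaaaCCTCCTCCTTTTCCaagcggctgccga
RPL9, chr4:39458903-39458962, minus strand: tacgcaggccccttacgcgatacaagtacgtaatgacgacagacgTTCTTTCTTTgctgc
RPS27, chr1:153990722-153990781, plus strand: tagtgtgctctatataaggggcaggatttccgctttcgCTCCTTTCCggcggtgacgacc
RPS27L, chr15:63157458-63157517, minus strand: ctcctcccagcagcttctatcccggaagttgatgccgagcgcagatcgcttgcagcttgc
RPL26, chr17:8383174-8383233, minus strand: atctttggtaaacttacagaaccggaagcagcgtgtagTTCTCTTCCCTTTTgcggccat
RPL26L1, chr5:172958689-172958748, plus strand: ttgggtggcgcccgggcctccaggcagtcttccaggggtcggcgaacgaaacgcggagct
RPL36A, chrX:101390971-101391030, plus strand: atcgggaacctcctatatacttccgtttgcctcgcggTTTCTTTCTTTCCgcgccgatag
RPL36AL, chr14:49620607-49620666, minus strand: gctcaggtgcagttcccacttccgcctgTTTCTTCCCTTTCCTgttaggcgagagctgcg
RPL7L1, chr6:42879576-42879635, plus strand: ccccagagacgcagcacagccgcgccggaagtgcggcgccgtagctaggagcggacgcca
RPL13A and RPL9 were among the core mRNAs with the largest rises, RPS27, RPL26 and RPL36A are core partners of the paralogs printed after them, and RPL7L1 was the paralog lower under every setting tried. A start was found for 69 of 86 members. A run of at least 8 C or T letters within 25 bases of the start, on the sense strand, stood in 53 of 63 core starts (84.1%), in 2 of 6 paralog starts (33.3%) and in 5600 of 27305 starts of all genes (20.5%). The 2 paralogs with a run were RPL22L1 and RPL36AL. Within 300 bases around the start, the ETS-type letters CCGGAAG, searched on both strands, stood in 33.3% of core, 33.3% of paralog and 10.7% of all promoters, and the YY1-type letters AANATGGC in 17.5%, 16.7% and 6.82%. The E-box CACGTG stood in 4.76%, 16.7% and 7.43% of them, and TATAAA in 7.94%, 33.3% and 12%. These are letter matches, not measured binding.

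Nearly all core ribosomal protein mRNAs were higher in F133V cells, by similar and modest amounts. Of 78 core members, 70 were higher, 1 was lower and 7 did not pass the test (edgeR quasi-likelihood test, Benjamini-Hochberg adjusted over 17539 genes, threshold 0.05). Over all tested genes 27.2% were called higher and 27.6% lower, and among genes with a mean of at least 100 CPM, which 74 of the 78 core members reached, 32.7% were called higher and 34.8% lower. Upper-quartile scaling, which moved the median of all genes to 0.13 on the log2 scale, gave 6462 genes higher and 3831 lower over all genes in place of 4763 and 4841, and 74 core members higher and 1 lower. The median core log2 fold change was 0.36, a fold of 1.28, against 0.02 over all tested genes. Core values ran between -0.48 and 0.58. In 72 core members both F133V libraries stood above both wild-type libraries, as they did in 40.1% of all tested genes. In 2 core members both stood below, as in 37.8% of all tested genes.

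**Figure D1:**
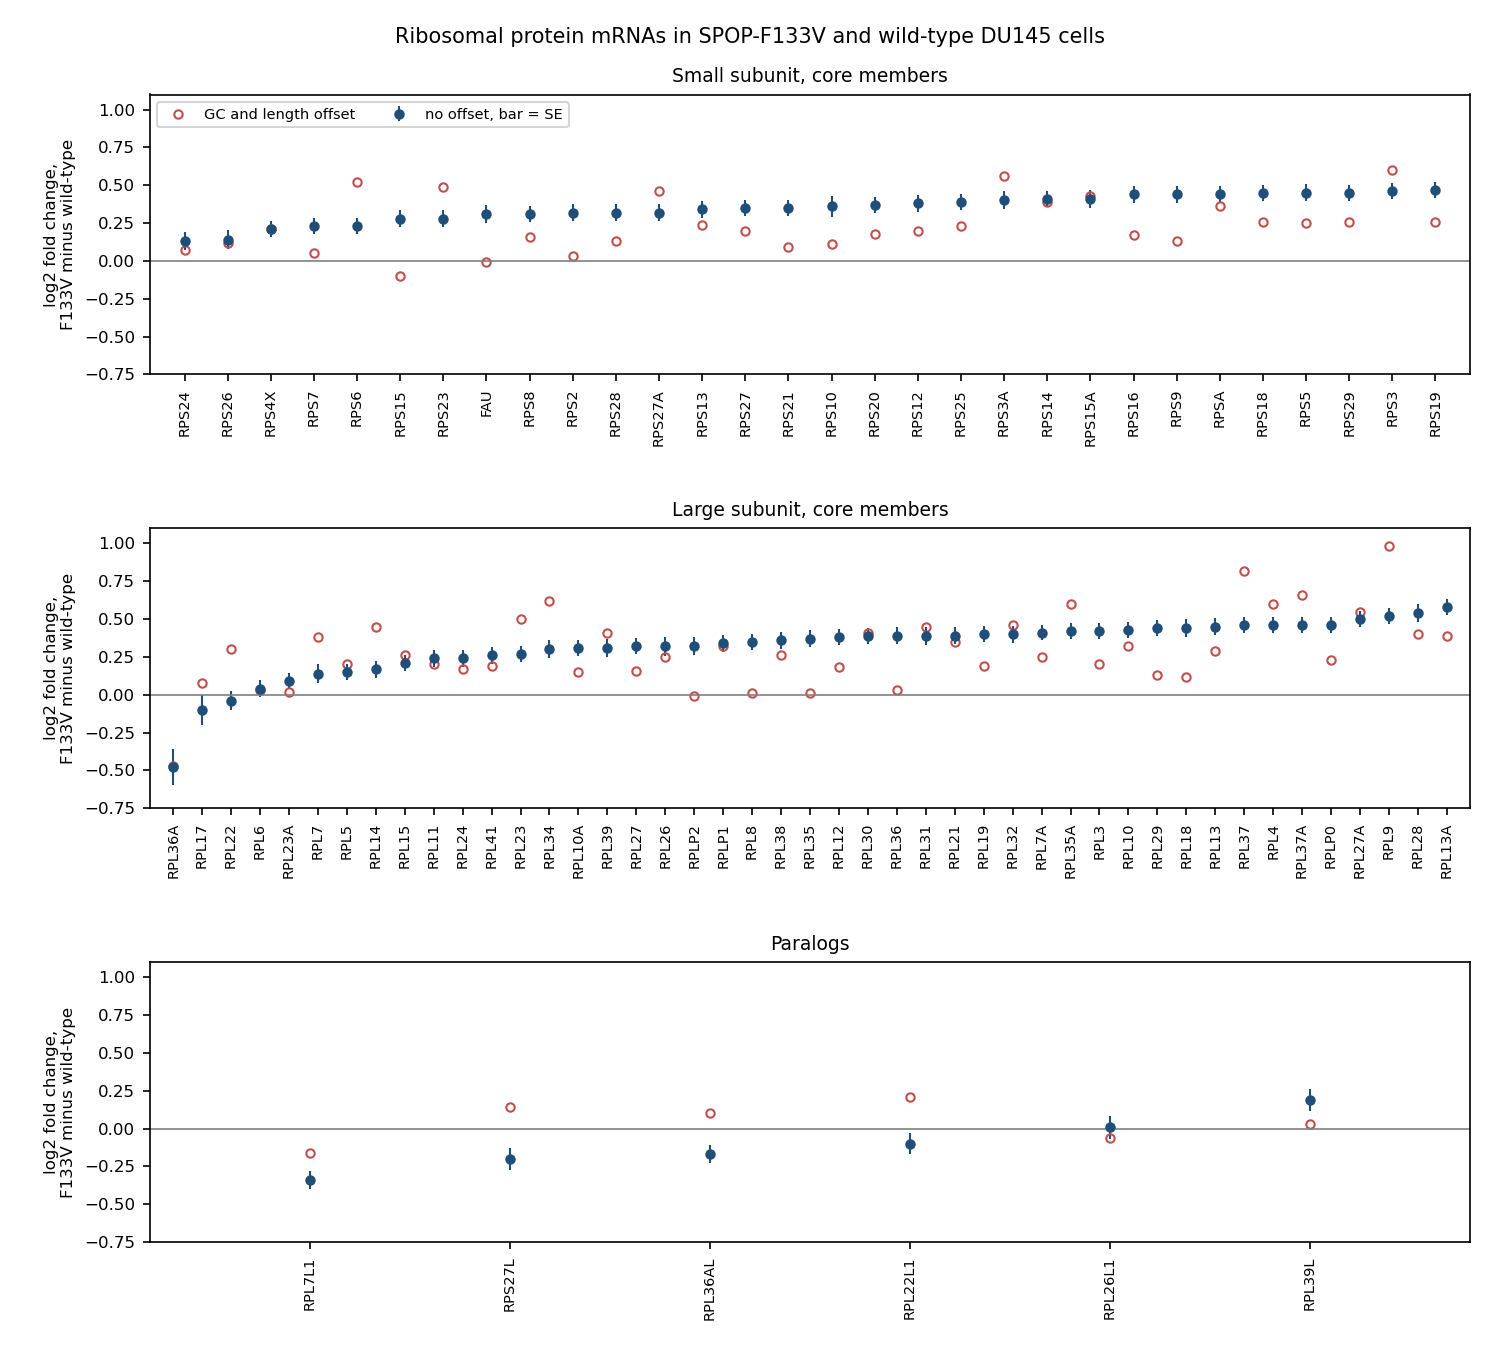
Log2 fold change (F133V minus wild-type) of the tested members reported here, in panels for the small subunit, the large subunit and the paralogs, sorted by value. Filled points with SE bars are the edgeR values without an offset and open points the values with a GC and length offset. Most filled points of core members lie above 0, with RPL36A at -0.48 the lowest and RPL13A at 0.58 the highest, while the 6 paralogs run from -0.34 to 0.19.

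Core members together took 6.93% and 6.89% of all gene counts in the F133V libraries, against 5.33% and 5.14% in the wild-type libraries. The mean shares were 6.91% ± 0.0302 for F133V and 5.23% ± 0.133 for wild-type (SD, n = 2 each), a ratio of 1.32. The groups did not overlap (exact permutation test, two-sided, p = 0.33, the smallest that 2 against 2 libraries can give). The paralog share was lower, with 0.0836% and 0.0788% in F133V cells, against 0.0919% and 0.0899% in wild-type cells, a ratio of 0.894 (exact permutation p = 0.33). Small-subunit core genes took 2.67% ± 0.0277 of counts in F133V cells and 2.03% ± 0.0521 in wild-type cells, and large-subunit core genes 4.24% ± 0.0025 in F133V cells and 3.2% ± 0.0813 in wild-type cells (SD, n = 2 each). The ratios for the small and the large subunit were 1.31 and 1.32. In these bulk libraries, more RNA of a gene per cell and more cells that express it cannot be told apart.

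**Figure D2:**
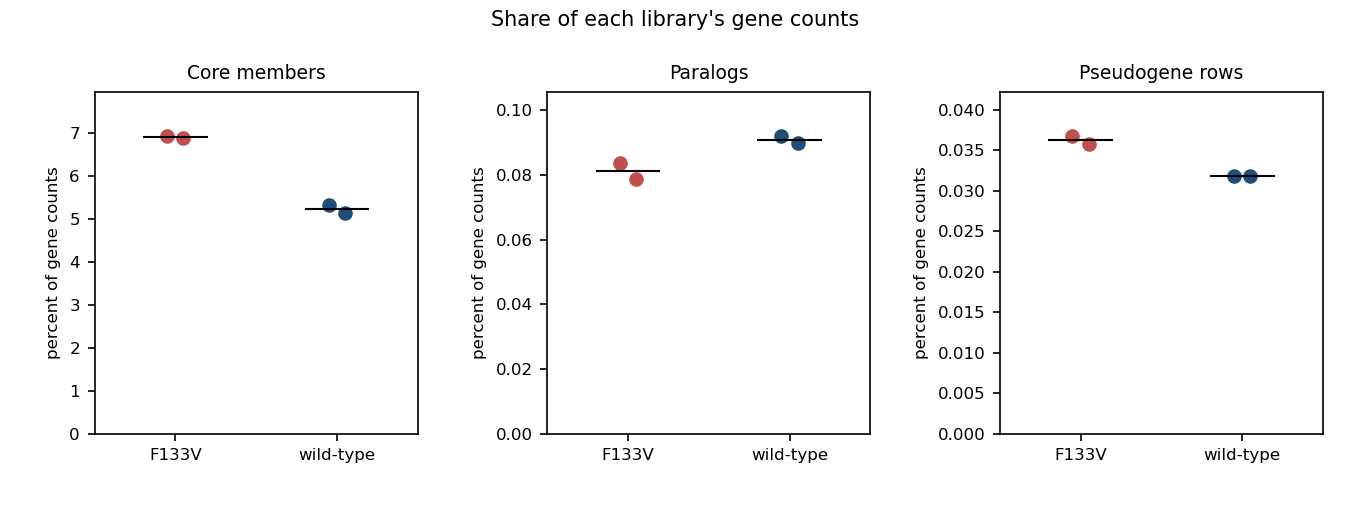
Percent of each library's gene counts in core ribosomal protein genes, in paralogs and in pseudogene rows named after members, for the F133V and wild-type libraries. Points are libraries and lines are group means, with axes starting at 0. The core share is near 6.9% in both F133V libraries and at 5.33% and 5.14% in the wild-type libraries, while the paralog share is lower in F133V.

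In the small subunit, 29 of 32 core mRNAs were higher and 0 were lower (edgeR), beside 27.2% and 27.6% of all tested genes. The median log2 fold change was 0.36. Among the 3 that did not pass were RPS24 and RPS26. The number lower was also 0 at an unadjusted p under 0.05 and with DESeq2. RPS19, the gene most often mutated in Diamond-Blackfan anaemia, was at 1424 and 1508 CPM in F133V cells, against 1073 and 1044 CPM in wild-type cells, a log2 fold change of 0.47 ± 0.0537 (SE, edgeR, adjusted p = 3.42e-07). Both F133V libraries stood above both wild-type libraries. RPS18, which sits in the head of the small subunit and was among the core members with the most reads, was at 2117 and 2075 CPM in F133V cells, against 1549 and 1510.2 CPM in wild-type cells, with a log2 fold change of 0.45. RPS6, the substrate of the S6 kinases, averaged 1212 ± 29.5 CPM in F133V and 1036 ± 25.9 CPM in wild-type libraries, a log2 fold change of 0.23. Of 19 listed ribosomal protein genes mutated in Diamond-Blackfan anaemia, 16 were higher and 3 did not pass, with a median of 0.32. This was near the core members as a whole, of which 70 of 78 were higher, with a median of 0.36. Over all tested genes 27.2% were called higher.

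Among the small-subunit genes made as fusions to ubiquitin or a ubiquitin-like domain, RPS27A averaged 1140 ± 59.7 CPM in F133V and 914 ± 34.2 CPM in wild-type libraries, and FAU averaged 350.4 ± 16.4 CPM in F133V and 282 ± 3.17 CPM in wild-type libraries (SD, n = 2 each). Their log2 fold changes were 0.32 and 0.31. RACK1, a small-subunit protein, belongs to the ribosome but carries another kind of symbol. RACK1 was at 1269.5 and 1266 CPM in F133V cells, against 983 and 989.7 CPM in wild-type cells. Its log2 fold change was 0.36, with no overlap between groups.

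In the large subunit, 41 of 46 core mRNAs were higher, 1 was lower and 4 did not pass, with a median log2 fold change of 0.37. Over all tested genes 27.2% were called higher and 27.6% lower. RPL13A, which is also part of the GAIT complex that holds back translation of inflammatory mRNAs, had the largest rise of all core members. It was at 1398 and 1438 CPM in F133V cells, against 959 and 933 CPM in wild-type cells, a log2 fold change of 0.58 ± 0.0527 (SE, edgeR, adjusted p = 1.53e-08). RPL28 was at 301 and 328 CPM in F133V cells, against 222 and 211 CPM in wild-type cells, with a log2 fold change of 0.54 ± 0.0607. RPL9, part of the factor-binding region of the large subunit, was at 1329.6 and 1311 CPM in F133V cells, against 941 and 902 CPM in wild-type cells, with a log2 fold change of 0.52 ± 0.0530. In each of these 3 genes the F133V libraries stood clear of the wild-type libraries.

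RPL27A was at 733 and 762 CPM in F133V cells, against 539 and 518 CPM in wild-type cells, with a log2 fold change of 0.50 ± 0.0546. F133V replicate 2 was the higher F133V library. RPL4 and RPL3, which reach into the core of the large subunit, had more reads than most core members. RPL4 was at 3069 and 3023 CPM in F133V cells, against 2245 and 2169.9 CPM in wild-type cells, a log2 fold change of 0.46. RPL3 was at 2017 and 2062 CPM in F133V cells, against 1537 and 1512 CPM in wild-type cells, a log2 fold change of 0.42. RPL8, close to the peptidyl transferase centre, was at 2111 and 2299.9 CPM in F133V cells, against 1748 and 1723 CPM in wild-type cells, a log2 fold change of 0.35. The groups did not overlap in any of these.

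The stalk proteins RPLP0, RPLP1 and RPLP2 recruit elongation factors to the large subunit. Without an offset all 3 mRNAs rose, by log2 fold changes of 0.46, 0.34 and 0.32. RPL5 and RPL11, which with 5S ribosomal RNA bind MDM2 when ribosome assembly is disturbed, had smaller rises without an offset. RPL5 averaged 722 ± 28.3 CPM in F133V and 651 ± 17.2 CPM in wild-type libraries, and RPL11 averaged 798 ± 7.20 CPM in F133V and 673 ± 39.3 CPM in wild-type libraries (SD, n = 2 each). Their log2 fold changes were 0.15 and 0.24 (edgeR, adjusted p = 0.0272 and 9.78e-04). With the GC and length offset RPL5 and RPL11 were both at 0.20, and RPLP0, RPLP1 and RPLP2 at 0.23, 0.32 and -0.01. With the coding offset RPL5 and RPL11 were at 0.49 and 0.24, and RPLP0, RPLP1 and RPLP2 at 0.36, 0.17 and 0.12. The order of these genes thus depended on the setting. In the list of 6 MDM2-binding ribosomal proteins, 5 were higher and RPS27L was lower without an offset, beside 27.2% and 27.6% of all tested genes. With the GC and length offset all 6 were higher, beside 28.1% of all genes, and with the coding offset also all 6, beside 31.8%. RPS27L was called higher with these offsets, at 0.14 and 0.20. Leaving out wild-type replicate 2 brought the number of core members called higher to 55, beside 15.3% of all genes tested, and leaving out wild-type replicate 1 to 63, beside 15.6%. In both cases the lone wild-type library is assumed to vary like the F133V pair. RPL5 and RPL7 lost their calls in both, as they did with DESeq2, and RPL11 without wild-type replicate 2.

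RPL36A was the only core member called lower. It had 169 and 157 counts in F133V cells and 243 and 230 counts in wild-type cells, or 4.60 and 4.45 CPM against 6.19 and 6.44 CPM, a log2 fold change of -0.48 ± 0.119 (SE, edgeR, adjusted p = 1.90e-03). The groups did not overlap. All of its 75-base coding stretches also stand in other genes, pseudogenes among them, and its exons overlap the readthrough gene RPL36A-HNRNPH2, so its value is uncertain. It lost the call with an offset for GC and length of the longest transcript, at -0.17.

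RPL17 also had few reads. It was at 9.88 and 11.4 CPM in F133V cells, against 11.1 and 11.6 CPM in wild-type cells, and its groups overlapped. All of its coding 75-base stretches stand in other genes, and it overlaps another annotated gene on the same strand. RPL22, which binds viral and cellular RNA and is mutated in some cancers, was at 117 and 112 CPM in F133V cells, against 118 and 118 CPM in wild-type cells, with a log2 fold change of -0.04 ± 0.0615. It shares 96.5% of its coding 75-base stretches with other genes. With the GC and length offset and the coding offset RPL22 was called higher, at 0.30 and 0.27.

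RPL6 was at 752 and 711 CPM in F133V cells, against 717 and 705 CPM in wild-type cells, a log2 fold change of 0.04. RPL23A was at 518 and 494 CPM in F133V cells, against 477 and 472 CPM in wild-type cells, a log2 fold change of 0.09. RPS24 was at 1112 and 982 CPM in F133V cells, against 987 and 932 CPM in wild-type cells, a log2 fold change of 0.13. RPS26 was at 135 and 145 CPM in F133V cells, against 128 and 126 CPM in wild-type cells, a log2 fold change of 0.14. With the coding offset RPL6, RPL23A and RPS24 were called higher, at 0.23, 0.12 and 0.43, while RPS26 was not called, at 0.01. With the GC and length offset RPS26 was called higher, at 0.12. RPL6, RPL23A and RPS24 were not called with it, at 0.03, 0.02 and 0.07. Without an offset none of these 4 passed the test (edgeR, adjusted p between 0.0690 and 0.555), and the groups overlapped in RPL6 and RPS24. RPL23A, RPL6 and RPS24 passed as higher without F133V replicate 2, and RPS26 without F133V replicate 1.

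Of the 6 tested paralogs, 1 was higher, 3 were lower and 2 did not pass, with a median log2 fold change of -0.13. Over all tested genes 27.2% were called higher and 27.6% lower, and 6 genes are too few to set these counts apart from that background. RPL7L1, related to a yeast ribosome assembly factor, was at 269 and 253 CPM in F133V cells, against 324 and 334 CPM in wild-type cells. Its log2 fold change was -0.34 ± 0.0576 (SE, edgeR, adjusted p = 5.15e-05), and it stayed lower under all settings tried, between -0.41 and -0.15. RPS27L, a p53 target in human cells, was at 36.1 and 34.7 CPM in F133V cells, against 41.1 and 40 CPM in wild-type cells, a log2 fold change of -0.20 ± 0.0724 (adjusted p = 0.0266). RPL36AL, whose protein is nearly that of RPL36A, was at 362 and 339 CPM in F133V cells, against 407 and 380.3 CPM in wild-type cells, a log2 fold change of -0.17 ± 0.0588 (adjusted p = 0.0209). In all 3 both F133V libraries were low, but RPS27L and RPL36AL turned to 0.14 and 0.10 with the GC and length offset and were at 0.20 and -0.06 with the coding offset. Both lost their calls with upper-quartile scaling and without either wild-type library, and RPS27L also with DESeq2.

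RPL39L, a copy of RPL39 known from testis and some tumour cells, was at 56.9 and 63.5 CPM in F133V cells, against 53.7 and 51.5 CPM in wild-type cells. It rose by a log2 fold change of 0.19 ± 0.0727 (edgeR, adjusted p = 0.0294), a call lost with the GC and length offset (0.03), with DESeq2 and without either wild-type library and kept with the coding offset (0.36). RPL22L1 was at 69.6 and 65.5 CPM in F133V cells, against 70.5 and 74.0 CPM in wild-type cells, a log2 fold change of -0.10 ± 0.0676 that did not pass and turned to called rises of 0.21 with the GC and length offset and 0.42 with the coding offset. RPL26L1 was at 29.5 and 29 CPM in F133V cells, against 29.9 and 28.3 CPM in wild-type cells, and its groups overlapped. With the GC and length offset 3 paralogs were higher and 1 lower, so the direction of RPS27L, RPL36AL and RPL22L1 depended on that setting while RPL7L1 kept its own. RPL3L, a muscle form of RPL3, and RPL10L, a testis form of RPL10, had 3 and 0 counts over all libraries.

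Without an offset, 6 of the 8 core partners of these paralogs were higher, all but RPL22 and RPL36A, beside 27.2% of all tested genes. RPL22 was called higher with the GC and length offset, at 0.30, and with the coding offset, at 0.27. RPL7 was at 659.9 and 593 CPM in F133V cells, against 583 and 552 CPM in wild-type cells, a log2 fold change of 0.14 at the edge of the threshold (edgeR, adjusted p = 0.0499), a call lost with relative log scaling and with DESeq2. It was called higher with the GC and length offset, at 0.38, and with the coding offset, at 0.53. RPL26 was at 351 and 319 CPM in F133V cells, against 277 and 259 CPM in wild-type cells, and RPL39 at 389 and 362 CPM in F133V cells, against 307 and 299.5 CPM in wild-type cells. RPS27 was at 1382 and 1293 CPM in F133V cells, against 1063 and 1032 CPM in wild-type cells, and RPL10, the partner of RPL10L, at 644 and 662 CPM in F133V cells, against 484 and 485 CPM in wild-type cells. All 4 of the last named rose, by log2 fold changes of 0.32, 0.31, 0.35 and 0.43.

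Counts of a paralog over its partner compare the pair within a library. RPS27L reads were 2.61% and 2.68% of RPS27 reads in F133V cells, against 3.87% and 3.87% in wild-type cells, a log2 difference of -0.55. RPL7L1 reads were 40.7% and 42.7% of RPL7 reads in F133V cells, against 55.6% and 60.5% in wild-type cells, a log2 difference of -0.48. RPL26L1 reads were 8.39% and 9.07% of RPL26 reads in F133V cells, against 10.8% and 10.9% in wild-type cells, a log2 difference of -0.32. In these 3 pairs the groups did not overlap (exact permutation test, two-sided, p = 0.33 each, over 6 pairs). The groups of RPL22L1 and RPL36AL over their partners did not overlap either, with log2 differences of -0.06 and 0.31. Among all tested genes, both F133V libraries stood above both wild-type libraries in 40.1% and below in 37.8%. The difference for RPL7L1 was -0.54 and that for RPL26L1 -0.31 with the GC and length offset, whereas that for RPS27L was -0.06. RPL22L1 reads were 59.7% and 58.5% of RPL22 reads in F133V cells, against 59.8% and 63.0% in wild-type cells. RPL39L reads were 14.6% and 17.6% of RPL39 reads in F133V cells, against 17.5% and 17.2% in wild-type cells, and the groups overlapped (exact permutation p = 1.00). RPL36AL over RPL36A is uncertain, since the RPL36A row held so few reads.

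**Figure D3:**
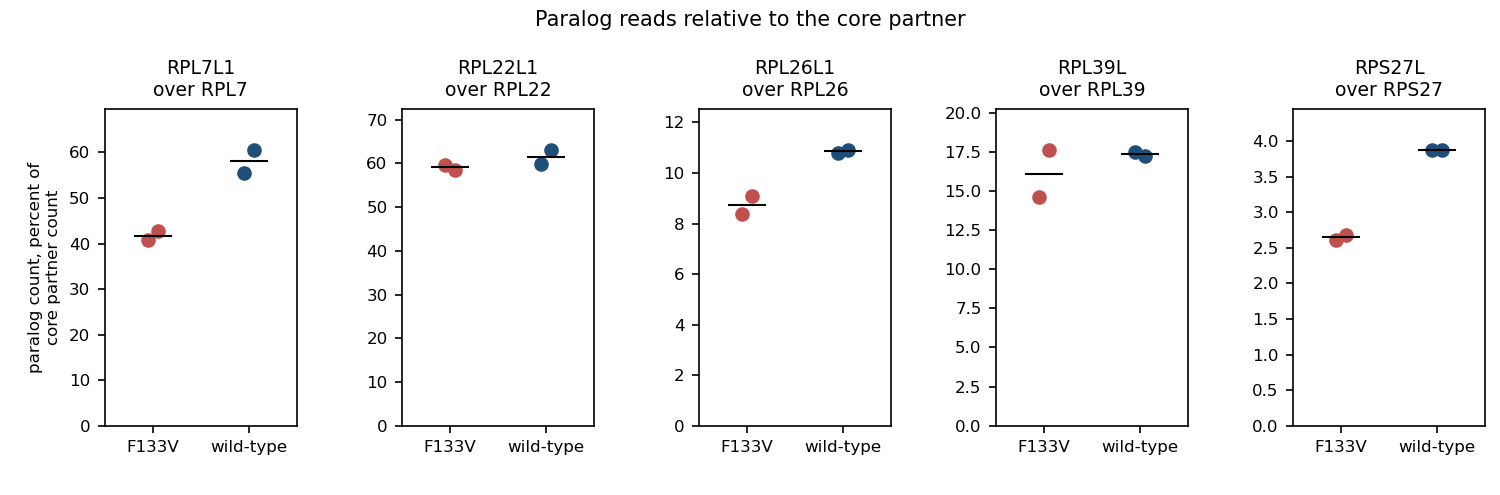
Paralog read count as a percent of the count of its core partner in each F133V and wild-type library, for 5 pairs. Points are libraries, lines are group means and each axis starts at 0. The F133V points lie below the wild-type points for RPL7L1, RPL26L1 and RPS27L, narrowly so for RPL22L1, and overlap them for RPL39L.

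How well reads tell each pair apart differs, and the coding sequences of the closest tested pair and of the pair with the largest difference without an offset are shown for that reason. Capitals mark the bases that differ, 8 between RPL39L and RPL39 and 56 between RPS27L and RPS27, in the principal transcripts of GENCODE release 29.
RPL39L: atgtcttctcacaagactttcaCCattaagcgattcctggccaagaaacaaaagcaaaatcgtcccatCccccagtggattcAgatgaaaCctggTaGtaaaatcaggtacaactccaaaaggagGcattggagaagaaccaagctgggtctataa
RPL39: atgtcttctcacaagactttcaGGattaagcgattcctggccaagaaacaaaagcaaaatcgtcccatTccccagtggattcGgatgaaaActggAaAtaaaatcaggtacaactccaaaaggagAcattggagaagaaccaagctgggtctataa
RPS27L: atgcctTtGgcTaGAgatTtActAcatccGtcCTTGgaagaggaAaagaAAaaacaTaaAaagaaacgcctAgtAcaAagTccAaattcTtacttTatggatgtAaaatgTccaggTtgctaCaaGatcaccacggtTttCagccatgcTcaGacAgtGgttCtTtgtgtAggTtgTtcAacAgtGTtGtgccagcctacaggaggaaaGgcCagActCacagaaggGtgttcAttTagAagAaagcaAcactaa
RPS27: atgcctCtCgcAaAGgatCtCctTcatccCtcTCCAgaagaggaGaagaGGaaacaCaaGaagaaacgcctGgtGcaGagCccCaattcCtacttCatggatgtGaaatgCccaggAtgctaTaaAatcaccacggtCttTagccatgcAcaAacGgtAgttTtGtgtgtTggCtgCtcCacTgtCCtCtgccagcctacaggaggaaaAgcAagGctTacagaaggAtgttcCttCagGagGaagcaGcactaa
In the principal transcripts, untranslated ends included, the longest shared run was 67 bases for RPL39L and RPL39 and 20 bases for RPS27L and RPS27. The coding sequences of these pairs are 94.9% and 78.0% identical. RPL36AL and RPL36A are 90% identical, RPL26L1 and RPL26 84.2%, RPL22L1 and RPL22 68.6%, and RPL7L1 and RPL7 57.0%. In none of the 8 pairs did the coding sequences share a stretch of 75 bases, the read length. Reads with mismatches could still be placed on the other member of a close pair.

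Among core members the rise was seen at all levels of sequence sharing. Of 11 core members with no coding 75-base stretch in another gene, 11 were higher, with a median log2 fold change of 0.36. Of 21 with under 20% shared, 21 were higher, with a median of 0.39, and of 30 with 20 to 80% shared, 28 were higher, with a median of 0.38. Of 16 with 80% or more shared, 10 were higher and 1 was lower, with a median of 0.28. All 78 core members have pseudogene rows, and 1608 rows are named after members in all, of which 583 had any count. Those rows took 0.0367% and 0.0357% of gene counts in F133V cells, against 0.0318% and 0.0318% in wild-type cells. Adding them to their genes changed neither count of core calls, 70 and 1. Reads with several alignments are in no gene row. Out of gene counts plus all tallies of uncounted reads, theirs made up 15.1% and 16.6% with F133V, against 14.6% and 13.6% with wild-type. Unaligned reads were tallied at 0, and how often a single read enters the tally of several alignments was not tested. With those reads in the denominator the core share was 5.77% and 5.61% in F133V cells, against 4.46% and 4.36% in wild-type cells. How many of those reads come from ribosomal protein mRNAs was not tested.

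Fold changes followed GC content across the whole data set, and most core members lay above the median of genes of like GC content. Over 11104 genes with a mean of at least 4 CPM, log2 fold change and GC content of the coding sequence had a Spearman correlation of 0.72, a description across genes that share the same 4 libraries. Over the 78 core members it was 0.42. At 40 to 45% coding GC the core median was 0.32 and that of all genes -0.47, with 11 of 11 core members above it. At 45 to 50% the core median was 0.30 and that of all genes -0.18, with 22 of 23 core members above it, and at 50 to 55% these were 0.40 and 0.02, with 24 of 25 above. At 55 to 60% the core median was 0.44 and that of all genes 0.15, with 12 of 12 above, and at 60% or more 0.35 and 0.25, with 7 of 7 above. RPL36A was among the 2 core members below the median of their GC range. Most tested paralogs also lay above the median of their range. At 40 to 45% RPS27L, RPL22L1 and RPL39L were at -0.20, -0.10 and 0.19, against -0.47 for all genes. At 45 to 50%, where all genes had -0.18, RPL26L1 was above at 0.01 and RPL36AL barely above at -0.17. RPL7L1 was below, at -0.34.

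**Figure D4:**
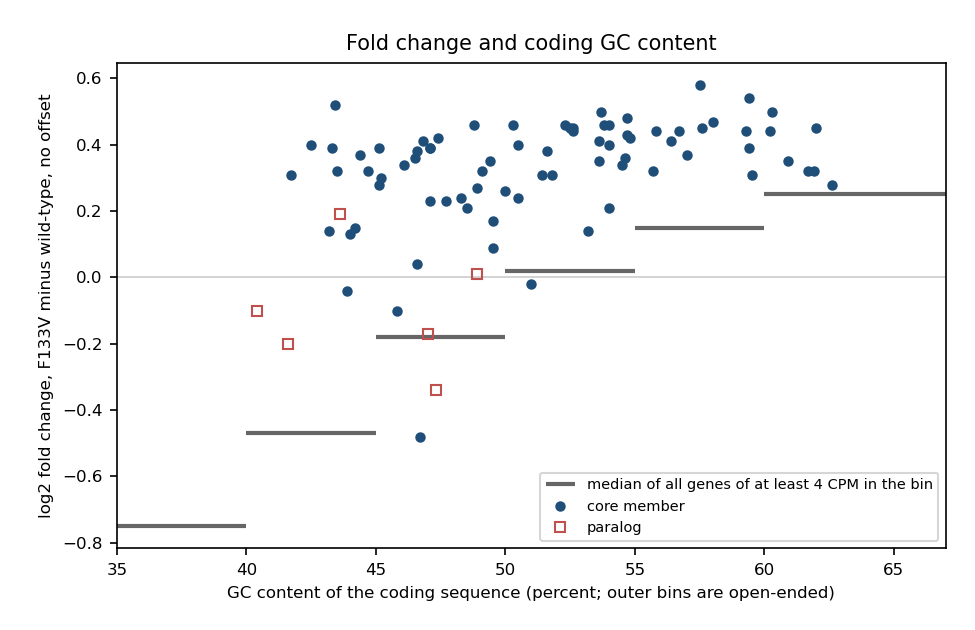
Log2 fold change (F133V minus wild-type, no offset) against GC content of the coding sequence. Filled points are core members, open squares are paralogs, and grey lines are medians of all genes of at least 4 CPM in each GC range, which run from -0.75 below 40% to 0.25 at 60% or more. In all, 11 of 11 core members at 40 to 45% lie above the grey line at -0.47, and the distance narrows towards high GC content.

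The F133V libraries also differed from each other along GC content. The median log2 difference of replicate 2 minus replicate 1 was -0.10 for core members with 40 to 45% coding GC and 0.12 for those with 60% or more, while in wild-type cells it was -0.07 and -0.03. With an offset fitted on GC content and length of the transcript, 64 core members were higher, 3 were lower and 11 did not pass, with a median log2 fold change of 0.23, where 28.1% of all genes tested were called higher and 24.3% lower. With the offset fitted on the coding sequence, 67 were higher, 3 lower and 8 did not pass, with a median of 0.31, where 31.8% were called higher and 28.6% lower. In all 3 fits 60 core members were higher. Among the 78 core members, the Spearman correlation of log2 fold change with coding GC was 0.42 without an offset. It was -0.36 with the GC and length offset and -0.7 with the coding offset, so adjusted values tended to be larger at low coding GC. RPL9 had the largest value with both offsets, 0.98 and 0.89, and RPL13A was at 0.39 and 0.37. RPS15 was at -0.10 and -0.06, FAU at -0.01 and 0.02, RPS2 at 0.03 and 0.02, and RPL8 at 0.01 and 0.06. The transcript lengths of several core genes are set by long annotated untranslated ends, which enter the first offset but not the second. A genotype difference that itself runs along GC content would be removed with it.

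Fold change and mean log2 CPM of the 78 core members had a Spearman correlation of 0.39 and a Pearson correlation of 0.67, beside 0.42 and 0.38 for coding GC, all descriptions across genes of the same 4 libraries. Start-site and intron features went with small differences. The 53 core members with a run of at least 8 C or T letters within 25 bases of the start had a median log2 fold change of 0.36, with 48 higher. The 10 without such a run had a median of 0.39, with 9 higher. Among these 10, RPL11, RPL13 and RPL32 had runs of 12, 10 and 17 letters that began near the edge of that range and reached past it. The 28 core members that hold snoRNA genes in their introns had a median of 0.40, with 26 higher, and the other 50 one of 0.34, with 44 higher.

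Of 15 other listed mRNAs with a known TOP motif, 14 were tested, of which 8 were higher, 4 lower and 2 did not pass, with a median log2 fold change of 0.20, where 27.2% of all tested genes were called higher and 27.6% lower. The number lower is thus near the share over all genes. EEF2, the translocation factor of elongation, was at 3519 and 3809 CPM in F133V cells, against 2497 and 2435 CPM in wild-type cells, a log2 fold change of 0.57. TPT1, a translationally controlled protein, was at 1542 and 1463 CPM in F133V cells, against 1191 and 1153 CPM in wild-type cells, a log2 fold change of 0.36. EIF3F averaged 129 ± 2.84 CPM in F133V and 100.2 ± 0.252 CPM in wild-type libraries, and EIF4B 629 ± 26.3 CPM in F133V and 508 ± 5.86 CPM in wild-type libraries (SD, n = 2 each). The 4 lower ones were EIF3E, HNRNPA1, NPM1 and NAP1L1, named after their values were seen, with log2 fold changes of -0.26, -0.26, -0.31 and -0.19. These 4 calls depended on the offset. EIF3E was called higher at 0.30 with the GC and length offset and at 0.35 with the coding offset, and NAP1L1 at 0.51 and 0.45. NPM1 was not called with the GC and length offset, at -0.06, and was called higher with the coding offset, at 0.16. HNRNPA1 was not called with the GC and length offset, at 0.07, and was called lower with the coding offset, at -0.11. With the GC and length offset 9 of the 14 were higher and 0 lower (edgeR), with a median of 0.32, where 1 was lower at an unadjusted p under 0.05 and DESeq2 without an offset called 4 lower. The coding offset gave 11 higher and 1 lower, and over all genes 28.1% were called higher and 24.3% lower with the first offset and 31.8% and 28.6% with the second. EEF1G was listed at 0 in all 4 libraries.

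Chaperones and assembly factors of new ribosomal proteins were lower where they were called. Of 11 tested, 0 were higher (also 0 at an unadjusted p under 0.05 and with DESeq2), 7 were lower and 4 did not pass (edgeR), with a median log2 fold change of -0.34, beside 27.6% of all tested genes called lower, and with the GC and length offset 1 (PDCD2, named after its value was seen) was higher and 9 were lower, beside 24.3%. LTV1, a small-subunit assembly factor, was at 12.1 and 10.1 CPM in F133V cells, against 24.5 and 23.1 CPM in wild-type cells, a log2 fold change of -1.10 (edgeR, adjusted p = 7.64e-09). BCCIP, which binds RPL23 in human cells, averaged 74.1 ± 7.93 CPM in F133V and 122 ± 3.67 CPM in wild-type libraries, a log2 fold change of -0.72. Both falls were smaller but still called with the offsets, at -0.74 and -0.56 for LTV1 and -0.24 and -0.37 for BCCIP. RRS1 and RPF2, which bring the 5S ribosomal RNA particle into the large subunit, averaged 33.8 ± 3.96 and 31.8 ± 0.0182 CPM in F133V and 49.8 ± 0.919 and 48.1 ± 0.0563 CPM in wild-type libraries (SD, n = 2 each). The fall of RPF2 was not seen with the offsets, at -0.06 and 0.10, while RRS1, at -0.56 without an offset, was at -0.79 and -0.88. The groups did not overlap in any of these 4.

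Of 13 tested regulators of ribosomal protein synthesis, 3 were higher, 6 were lower and 4 did not pass, with a median of -0.12. Over all tested genes 27.2% were called higher and 27.6% lower, so the number higher is near the share over all genes. The GC and length offset gave 2 higher and 9 lower, beside 28.1% and 24.3% of all genes tested. The coding offset gave 2 higher and 8 lower, beside 31.8% and 28.6%. TBPL1, named after its values were seen, was called lower at -0.36 without an offset and higher at 0.35 and 0.33 with the offsets. LARP4, a poly-A binding regulator of mRNA stability, averaged 50 ± 6.09 CPM in F133V and 101 ± 1.66 CPM in wild-type libraries (SD, n = 2 each), a log2 fold change of -1.01. GABPA, an ETS factor, averaged 24.6 ± 2.89 CPM in F133V and 49.2 ± 4.32 CPM in wild-type libraries, and the kinase gene RPS6KB1 30.7 ± 2.89 CPM in F133V and 55.6 ± 0.622 CPM in wild-type libraries (SD, n = 2 each). RPS6KA3 had a log2 fold change of -0.82. With the GC and length offset these 4 had smaller falls, with log2 fold changes of -0.26, -0.28, -0.16 and -0.25. With the coding offset they were at -0.49, -0.51, -0.56 and -0.22, and all 4 were called lower with either offset. The 3 higher ones, named after their values were seen, were MYC, EIF4EBP1 and RPS6KA1, with log2 fold changes of 0.39, 0.40 and 0.16. Of these, MYC was also called with the GC and length offset, at 0.12.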

How the data were processed

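Single reads of 75 bases were sequenced from 4 libraries, 2 per genotype, per the labels' protocols. The authors deposited raw counts per gene, whole numbers that are not normalized. TopHat2 2.0.10, HTSeq 0.6.0 and the build hg38 are named, per the submitters' processing notes. The annotation release and any use of strand were not given in the sources used here. Antisense overlaps cannot be told apart. Reads over no gene (6.12 to 6.53% of gene counts plus all tallies), over several genes (3.50 to 3.73%) or with several alignments (13.6 to 16.6%) stayed out of library sizes and tests. Replicates differed by more than counting noise, with chi-square over degrees of freedom of 7.68 in F133V and 1.64 in wild-type.

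Genes passing filterByExpr were scaled by TMM and tested two-sided in R 4.3.3 with edgeR 4.0.16 (quasi-likelihood, Benjamini-Hochberg over all tested genes, 2 residual degrees of freedom, biological coefficient of variation 4.64%, and 2.35% with the GC and length offset). Each SE is the log2 fold change over the square root of F. Offsets came from a smooth (mgcv 1.9.3, basis dimension 8) of each library's deviations on GC content and log2 length, for 98.6% of tested genes by principal transcript and 77.5% by coding sequence. DESeq2 1.42.0, other scalings, left-out libraries, a replicate block and added pseudogene counts were alternatives. The edgeR test was checked on simulated counts. Transcripts and positions came from GENCODE release 29 (GRCh38), which may differ from the authors' release. Promoters came from RefSeq. Shared 75-base stretches were searched over the spliced transcripts of that release.

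The members and gene lists were chosen with earlier results of these data known. Values in every library are given for paralogs and their partners, the 6 largest and 6 smallest core changes, core members not called or called lower, and the 4 core members of highest mean CPM, and outside the members for up to 4 called genes of lowest adjusted p per list. Some genes that this rule names are not reported here; the counts of members include them.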

Additional observations from a re-analysis of the deposited data

How the results depend on the processing

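With 2 libraries a group, 2 residual degrees of freedom and fold changes that follow GC content, the size of a single member's change is less firm than the shared direction of the core members. Under the alternatives run, 55 to 75 members and 55 to 74 core members were called higher. Adding the replicate number as a block, although the labels do not pair the numbers (correlation of same-numbered deviations 0.01 over 2333 genes), gave 71 members higher and 4 lower, changed no member's call, and gave 4619 genes higher and 4746 lower overall. Leaving out a library tests 1 against 2 and takes the lone library to vary like the others. Offsets on the coding sequence or the longest transcript, and the GC and length offset with a library left out, were chosen after seeing the data. The cause of the changes below was not tested.

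Core members called lower numbered 3 with the GC and length offset (with or without the replicate block, and without F133V replicate 2), 3 with the coding offset, 2 with the GC and length offset without F133V replicate 1, and 0 with the longest-transcript offset (edgeR), against 1. They numbered 1 to 2 with a library left out. Paralogs called higher numbered 3 with the GC, the coding and the GC and length offsets (also with the block or without F133V replicate 1), 2 without F133V replicate 2 under that offset and 0 with DESeq2, against 1, and 0 to 1 with a library left out. Paralogs called lower numbered 1 with upper-quartile scaling and with every offset, against 3, and 1 to 4 with a library left out. Members called lower numbered 2 with upper-quartile scaling and the GC offset and 1 with the longest-transcript offset, against 4, and 2 to 6 with a library left out. Genes called higher over all ranged from 2786 to 5225 with a library left out, the low counts being those without a wild-type library. The core median was 0.47 with upper-quartile scaling, 0.23 with the GC and length offset (also with the block), 0.28 with the GC offset and 0.29 with the longest-transcript offset. Under the GC and length offset it was 0.17 without F133V replicate 1 and 0.25 without F133V replicate 2. The core share difference of 1.67 percentage points was 1.28 with reads of several alignments in the denominator.

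These log2 fold changes changed sign. Upper-quartile scaling gave RPL17 0.01, RPL22 0.07 and RPL22L1 0.01, and RLE scaling and DESeq2 gave RPL26L1 -0.01. The GC and length offset, with or without the block, gave FAU -0.01, RPL17 0.08, RPL22 0.30, RPL22L1 0.21, RPL26L1 -0.06, RPL36AL 0.10, RPLP2 -0.01, RPS15 -0.10 and RPS27L 0.14. The GC offset gave RPF2 0.004, RPL17 0.17, RPL22 0.34, RPL22L1 0.25, RPL36AL 0.20 and RPS27L 0.10. The coding offset gave RPF2 0.10, RPL17 0.12, RPL22 0.27, RPL22L1 0.42, RPL41 -0.11, RPS15 -0.06, RPS27L 0.20 and RPS28 -0.12. The longest-transcript offset gave RPL17 0.09, RPL22L1 0.16, RPL23A -0.02, RPL26L1 -0.09, RPL36AL 0.06, RPLP2 -0.01, RPS15 -0.02 and RPS27L 0.10. The GC and length offset without F133V replicate 1 gave FAU -0.06, RPL17 0.19, RPL22 0.30, RPL22L1 0.20, RPL23A -0.06, RPL26L1 -0.10, RPL36 -0.04, RPL36AL 0.07, RPL6 -0.04, RPL8 -0.04, RPLP2 -0.04, RPS15 -0.13, RPS2 -0.01, RPS24 -0.05, RPS27L 0.13 and RPS7 -0.03. Without F133V replicate 2 it gave RPL22 0.27, RPL22L1 0.20, RPL26L1 -0.05, RPL36AL 0.09, RPL39L -0.03, RPLP2 -0.0049, RPS15 -0.07 and RPS27L 0.11. With a library left out and no offset, RPL26L1 ran from -0.04 to 0.05 and RPL6 from -0.03 to 0.08, and the log2 ratio of RPL39L to RPL39 from -0.246 to 0.0156. Counts limit RPL36A and RPL17, and RPL3L and RPL10L could not be tested.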
